A study of Mus musculus with 2 samples.

Results

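The genes described here encode the subunits of the mitochondrial respiratory chain and of the ATP synthase, and were chosen by name: every probe set whose only platform gene symbol starts with Nduf, Uqcr, Cox4i, Cox5, Cox6, Cox7, Cox8 or Atp5, or is Sdha, Sdhb, Sdhc or Sdhd. This gave 179 of the 45037 probe sets other than controls, for 90 of 18193 genes. The names also take in 8 assembly factors of complex I (the Ndufaf genes), the supercomplex factor Cox7a2l and the Ndufa4 relative Ndufa4l2, which are kept apart from the subunits below.

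The study compared mouse embryonic fibroblasts homozygous for the L307R change of Phc2 with wild-type fibroblasts. The Phc2 protein belongs to Polycomb repressive complex 1, and the change lies in its SAM domain, through which it polymerises. Both cultures are labelled as C57BL/6, from embryonic day 12.5, at passage 1, and grown in the same medium with fetal calf serum, and no agent is named for either. There was 1 Affymetrix array of total RNA for each genotype, hence 2 in all, so no value has a replicate, no test was made, and a difference here sets 1 culture against 1 other. The labels do not say how many embryos gave each culture. In RNA from a whole culture, fewer cells of a type and less RNA per cell cannot be told apart.

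The respiratory chain passes electrons from NADH (complex I) and succinate (complex II) through complex III to oxygen at complex IV, and pumps protons as it does so. The ATP synthase, complex V, lets the protons back through a rotating ring and makes ATP. Most subunits of these complexes are encoded in the nucleus, and most of their genes are active in nearly all cell types. The array signals below come from these nuclear genes, since the naming rule takes no subunit encoded in mitochondrial DNA.

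Respiratory chain and ATP synthase genes differed little between the genotypes. Of the 90 genes, 86 were measured, meaning that the probe set standing for the gene (the one with the highest mean log2 signal) exceeded a floor of 94.8 signal units on at least 1 array. The other 4, Ndufb4, Cox7a1, Cox7b2 and Cox8b, lay below it on both. For Ndufb4 this is the only probe set of its own, and 2 that the platform assigns to Ndufb4 and its close copies, which are no members, were bright: one had 5127 in Phc2 L307R and 4892 in wild type, the other 3980 in Phc2 L307R and 3969 in wild type. None of the 86 was 2-fold higher or lower in Phc2 L307R, where 1.11% of all 11408 measured genes were (0.579% higher and 0.535% lower). At 1.5-fold, none was higher and 2 were lower (Atp5md and Ndufb1), while 7.45% of all measured genes passed that size, 4.2% higher and 3.25% lower. These genes are bright on the array, and among the 4375 measured genes with a geometric mean signal of at least 1000 the share at 1.5-fold was 3.63%. Of those 4375, 8 were 2-fold higher and 10 were 2-fold lower. The counts of the family are thus too small to set it apart from other bright genes.

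The small differences lay mostly on the higher side. A log2 ratio (Phc2 L307R over wild type) above 0 was found in 66 of the 86 genes, 76.7%, against 59.1% of all measured genes and 60.3% of those with a signal of at least 1000. Among members with such a signal the share was 78.4%. The median log2 ratio was 0.11 over the 86 genes and 0.06 over all measured genes. When every ratio was centred on that median of all genes, the count above 0 became 55 of 86, 64.0%, where centring puts all genes at an even split, and with a loess fit it was 57, or 66.3%, against 54.8% of all genes. The log2 ratios of the 86 genes had an SD of 0.24, and those of all measured genes an SD of 0.33. For scale, probe sets of the same gene differed from each other with an SD of 0.27 in log2 ratio over the 48 members with at least 2 measured probe sets. That SD is the only error these data give for the ratio of a single gene, and it covers the array and not the cultures.

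**Figure D1:**
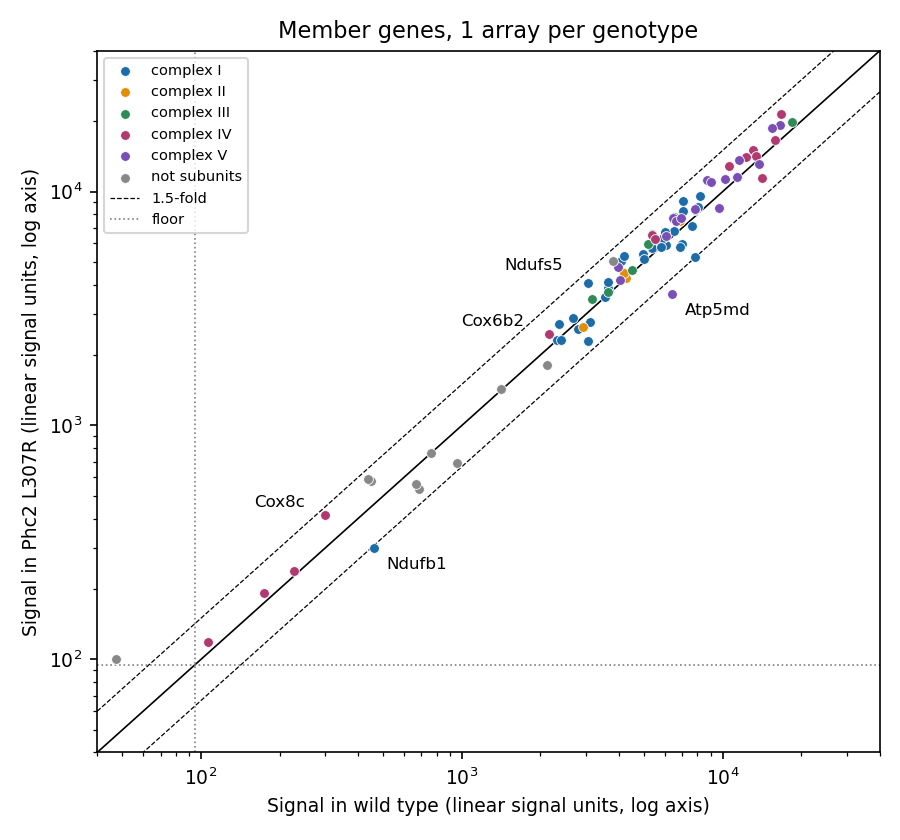
Signal of each of the 86 measured genes in Phc2 L307R (vertical, log axis) against wild type (horizontal, log axis), in linear signal units, coloured by complex. The solid line marks equal signals, the dashed lines 1.5-fold and the dotted lines the floor of 94.8. Most points hug the solid line, and Atp5md and Ndufb1 lie below the lower dashed line. The single grey point above the upper dashed line is Ndufa4l2, whose wild-type signal of 47.3 is below the floor.

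By complex, the median log2 ratio was 0.09 for complex I (33 measured of 34 subunits), 0.06 for complex II (4 of 4), 0.12 for complex III (8 of 8), 0.19 for complex IV (14 of 17, tissue isoforms included) and 0.15 for complex V (17 of 17). All 8 subunits of complex III had a ratio above 0, as did 13 of 14 in complex IV, 14 of 17 in complex V, 3 of 4 in complex II and 22 of 33 in complex I. Centred on the median of all genes, the counts were 6 of 8 in complex III, 13 of 14 in complex IV, 12 of 17 in complex V, 2 of 4 in complex II and 18 of 33 in complex I. With quantile normalization they were 7, 11, 13, 2 and 22, in the same order, and with the mean over a gene's probe sets 5, 11, 12, 2 and 25. The 10 measured genes that are not subunits had a median of 0.02, with 6 above 0. Differences between these medians were not tested.

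**Figure D2:**
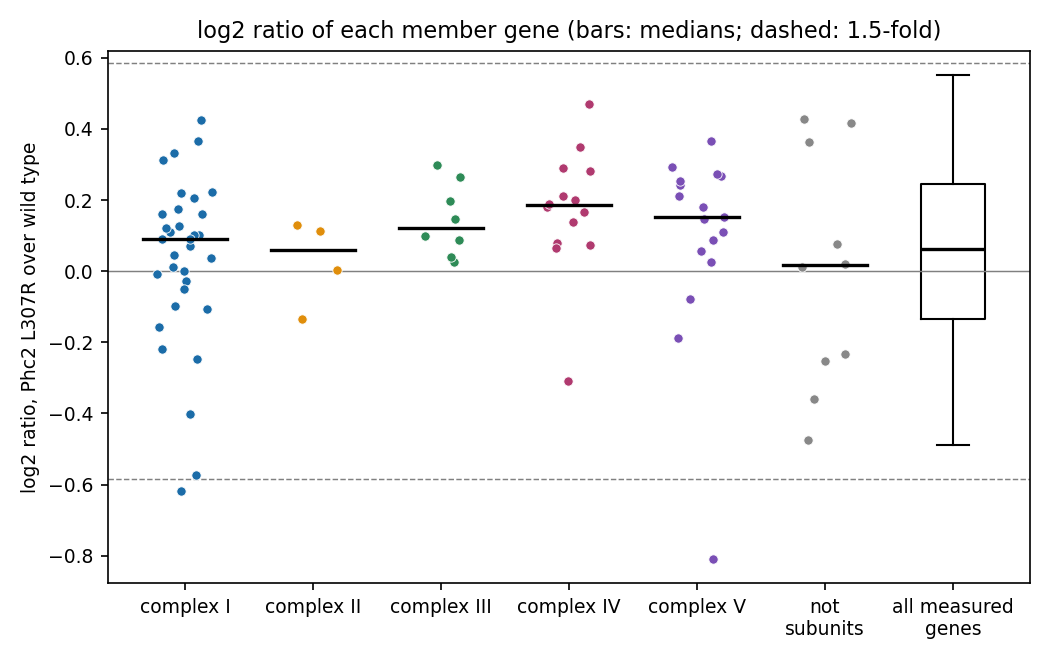
The log2 ratio of each measured gene (points) by complex, with the median as a bar, beside a box plot of all 11408 measured genes, whose whiskers reach the 5th and 95th percentiles. The medians lie between 0.02 and 0.19, and Atp5md in complex V and Ndufb1 in complex I are the only points past a dashed 1.5-fold line.

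Complex I takes electrons from NADH in its N module, hands them to ubiquinone in its Q module, and pumps protons in its membrane arm. In Phc2 L307R the signals of its subunits ran between 300.0 and 9546, with a median of 5277, and in wild type between 460.0 and 8201, with a median of 4974. Signals of different probe sets do not rank genes by transcript number, since each probe set has its own affinity.

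The 9 measured N module genes had 6 ratios above 0. Ndufv1, which binds NADH and flavin, gave 4088 signal units in Phc2 L307R and 3619 in wild type, a log2 ratio of 0.18. Its partner Ndufv2, an iron-sulfur protein, had 6722 in Phc2 L307R and 6008 in wild type, a ratio of 0.16. Ndufs1, the largest iron-sulfur subunit, had 2580 in Phc2 L307R and 2780 in wild type, a ratio of -0.11. Ndufa7 was the highest of the module, with 9072 in Phc2 L307R and 7042 in wild type, and all 5 of its probe sets lay above 0, between 0.15 and 0.37. The catalytic core of the module thus showed small ratios of both signs.

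The Q module, 4 genes, was split evenly around 0. Ndufs3 had 3871 in Phc2 L307R and 3634 in wild type, and Ndufa5 had 3548 in Phc2 L307R and 3546 in wild type, nearly equal. Ndufs7 and Ndufs8, which carry the last iron-sulfur clusters before ubiquinone, had log2 ratios of -0.16 and -0.25. Their probe sets disagreed: the second probe set of Ndufs7 gave 0.35, and the other 5 of Ndufs8 lay between 0.03 and 0.39. For these genes the direction depends on the probe set taken.

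The 20 measured genes of the membrane arm and its surroundings held both ends of complex I. Ndufs5, an accessory subunit of the membrane arm, was the highest, with 4074 in Phc2 L307R and 3034 in wild type, a log2 ratio of 0.43. A further probe set, which the platform assigns to Ndufs5 and its pseudogene and which is therefore no member, gave 3884 in Phc2 L307R and 3002 in wild type. Ndufs5 lies on chromosome 4, which also carries Phc2, 39 measured genes away. Ndufb1, a small accessory subunit, was the lowest, with 300.0 in Phc2 L307R and 460.0 in wild type, 1.53-fold lower, and only 1 probe set measures it. Ndufb6 and Ndufb10, both of the same arm, had ratios of -0.57 and -0.40. The second probe set of Ndufb6 had 6010 in Phc2 L307R and 5855 in wild type, a ratio of 0.04, so its lower value rests on 1 of its 2 probe sets. Ndufa13 (0.07) and Ndufab1, the mitochondrial acyl carrier protein (-0.03), were close to equal between the cultures.

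The assembly factors of complex I build the enzyme without staying in it. Their 8 genes were split, 4 above and 4 below 0. Ndufaf5 had 589.1 in Phc2 L307R and 437.8 in wild type, a log2 ratio of 0.43, and Ndufaf3 followed at 0.36. At the other end, Ndufaf2 had 691.4 in Phc2 L307R and 961.1 in wild type, a ratio of -0.48, followed by Ndufaf6 at -0.36. Ratios of this size came with signals that were mostly under 1000, and 6 of the 8 factors have a single measured probe set.

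Complex II, succinate dehydrogenase, also works in the tricarboxylic acid cycle. Sdha, the flavoprotein that oxidises succinate, had 4278 in Phc2 L307R and 4265 in wild type, and its other measured probe sets gave -0.15 and -0.05. Sdhb, its iron-sulfur partner, had 7502 in Phc2 L307R and 6853 in wild type, a log2 ratio of 0.13. The membrane anchors had ratios of 0.11 (Sdhc) and -0.13 (Sdhd) at their brightest probe sets. A second probe set of each, with the suffix _x_at that marks probes able to bind several transcripts, gave 2050 in Phc2 L307R and 1091 in wild type for Sdhc, and 338.3 in Phc2 L307R and 646.3 in wild type for Sdhd. These ratios, 0.91 and -0.93, run in opposite directions within 1 complex, and each is the larger of the pair of values its gene has.

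Complex III passes electrons from ubiquinol to cytochrome c. Uqcrc1, a core protein, had 7809 in Phc2 L307R and 6496 in wild type, a log2 ratio of 0.27. Its partner Uqcrc2 had 5945 in Phc2 L307R and 5180 in wild type, a ratio of 0.20, but its second probe set gave -0.51. Uqcrfs1, the Rieske iron-sulfur protein, had 4599 in Phc2 L307R and 4475 in wild type, a ratio of 0.04. Uqcrq, a small subunit, was the highest at 0.30 and Uqcr11 the lowest at 0.03. Uqcrb, which helps bind ubiquinone, gave 0.10 at its brightest probe set (19756 in Phc2 L307R and 18461 in wild type) and -0.46 at its second (3883 in Phc2 L307R and 5338 in wild type). Taking the mean over a gene's probe sets lowered the median of the complex to 0.03, where that of all measured genes was 0.04.

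Complex IV, cytochrome c oxidase, has nuclear subunits that come in tissue isoforms. Cox4i1, the widely expressed isoform of subunit 4, had 15105 in Phc2 L307R and 13048 in wild type, a log2 ratio of 0.21. Cox5b had 13994 in Phc2 L307R and 12266 in wild type, a ratio of 0.19, with all 5 measured probe sets above 0. Cox5a had 11417 in Phc2 L307R and 14134 in wild type, a ratio of -0.31, and was the only measured gene of complex IV below 0. Its other probe sets gave -0.42 and 0.12. Cox6a1 had 21378 in Phc2 L307R and 16774 in wild type, a ratio of 0.35, the highest among the widely expressed subunits. Of the widely expressed subunits, Cox7a2 (0.06) and Cox6b1 (0.08) differed least, with Cox8a at 0.29, Cox6c at 0.28 and Ndufa4, once counted in complex I, at 0.20. The second probe set of Cox6c gave -0.57. Cox7c was dim, with 192.6 in Phc2 L307R and 174.9 in wild type, and its probe sets gave 0.14 and -0.24.

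Isoforms of other tissues were mostly dim on both arrays. Of the isoforms of heart and skeletal muscle, Cox7a1 and Cox8b lay below the floor, and Cox6a2 had 239.8 in Phc2 L307R and 227.9 in wild type. Cox4i2, known from lung and from hypoxia, had 119.2 in Phc2 L307R and 106.2 in wild type. Among the isoforms known from testis, Cox7b2 lay below the floor, while Cox6b2 had 2449 in Phc2 L307R and 2159 in wild type, a log2 ratio of 0.18. Cox8c, also known from testis, had 412.5 in Phc2 L307R and 297.7 in wild type, and its ratio of 0.47 was the highest of all 86 genes. It rests on 1 probe set, since the other lay below the floor. No measured isoform of complex IV passed 1.5-fold. Cox7b, the widely expressed partner of Cox7b2, was not analysed here.

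Cox7a2l, known as a supercomplex factor, had 5055 in Phc2 L307R and 3787 in wild type, a log2 ratio of 0.42. Its second probe set gave 0.59, with 3867 in Phc2 L307R and 2569 in wild type. The third, an _x_at one, gave 0.73, with 4876 in Phc2 L307R and 2941 in wild type. It is thus higher in Phc2 L307R at all 3 probe sets, and the last 2 pass 1.5-fold. Ndufa4l2, induced by hypoxia, lay just above the floor in Phc2 L307R and had 47.3 in wild type, below it, a log2 ratio of at least 0.08.

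Complex V consists of a catalytic F1 head, a rotating stalk and membrane ring, and a peripheral stalk that holds the head still. Atp5b, the catalytic beta subunit, had 19260 in Phc2 L307R and 16642 in wild type, a log2 ratio of 0.21. Atp5a1, the alpha subunit, had 13657 in Phc2 L307R and 11541 in wild type, a ratio of 0.24, and its other probe sets gave 0.05 and -0.48. Atp5c1, the gamma subunit of the central stalk, had 11540 in Phc2 L307R and 11335 in wild type, a ratio of 0.03. Atp5d, in the same stalk, was the highest of the complex, with 11236 in Phc2 L307R and 8712 in wild type, a ratio of 0.37. With Atp5e at 0.06, all 5 genes of the head and central stalk lay above 0 at the probe set that stands for them.

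Atp5g1, Atp5g2 and Atp5g3 encode the same mature c subunit of the ring with different import sequences. Their ratios were alike at 0.27, 0.25 and 0.27 at the probe sets that stand for them. Another probe set of Atp5g2, below the floor in Phc2 L307R and dim in wild type, gave -0.23. Atp5g3 had the signals 18651 in Phc2 L307R and 15430 in wild type. In the peripheral stalk, Atp5o, which joins it to the head, had 11035 in Phc2 L307R and 9010 in wild type, a ratio of 0.29. The second probe set of Atp5o, an _x_at one, had 1530 in Phc2 L307R and 3946 in wild type. That ratio of -1.37 was the only one past 2-fold among the 159 measured probe sets of the family, where 1.53% of all 20737 measured probe sets with 1 gene symbol passed it. The other stalk genes had 0.11 (Atp5j), -0.08 (Atp5pb) and -0.19 (Atp5h), and the second probe set of Atp5h gave 0.19. Among the small membrane subunits, Atp5j2 had 0.15, with all 3 probe sets above 0.

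Atp5md, which encodes DAPIT, a small membrane subunit known for its part in ATP synthase dimers, stood apart from the rest of complex V. It had 3648 in Phc2 L307R and 6392 in wild type, 1.75-fold lower, a log2 ratio of -0.81. The other 16 genes of the complex lay between -0.19 and 0.37. Only 1 probe set measures Atp5md, so there is no second reading of it. Its ratio lay between -0.87 and -0.79 under all 9 alternative settings that were run on every gene. Moving or dropping the floor, averaging probe sets and leaving out suffixes cannot change a bright gene with 1 _at probe set. This narrow range is therefore no check of the lower value.

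Different probe sets of a gene often disagreed by more than the genotypes differed. Of the 48 members with at least 2 measured probe sets, 18 had all of them above 0, 5 had all below 0 and 25 had both signs. The gap between the lowest and the highest ratio was over 0.5 in 12 of the 48, and 38 further genes rest on 1 measured probe set. Such disagreement is not particular to the family. The SD between probe sets of a gene was 0.27 over the 48 members and 0.32 over 5460 genes of the array. The counts by sign and gap were not made over all genes. Among the 159 measured probe sets, 3 were at least 1.5-fold higher, 2 of Cox7a2l and 1 of Sdhc, where 3.88% of all measured probe sets were. At least 1.5-fold lower were 4, of Atp5o, Sdhd, Atp5md and Ndufb1, against 4.79% of all. Of these 7, 4 carry the suffix _x_at, which 26 of the 159 carry.

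**Figure D3:**
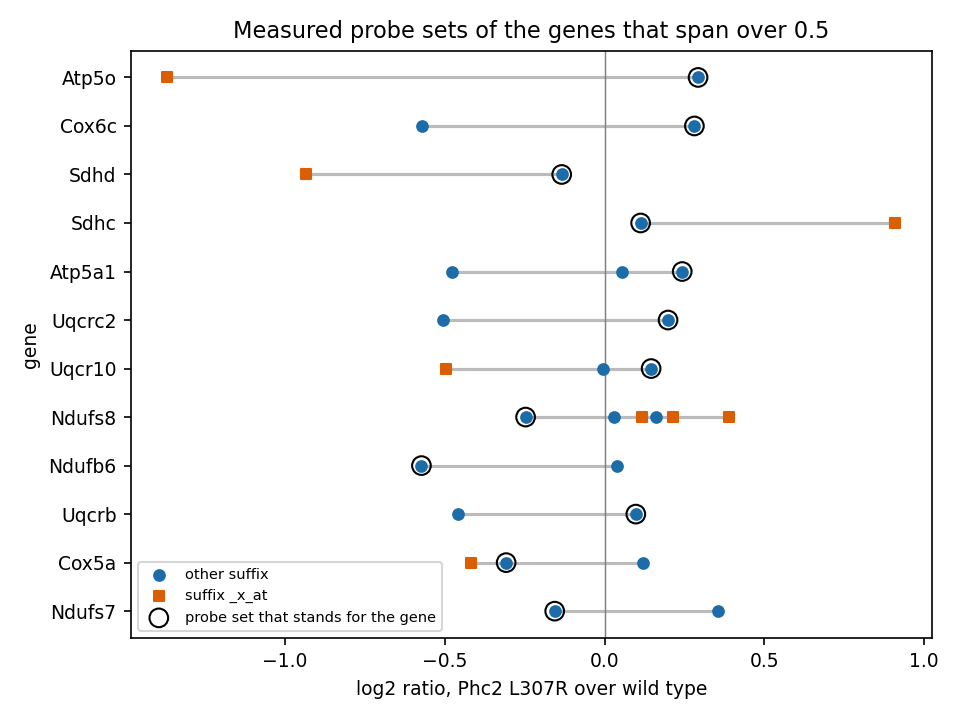
Log2 ratio (Phc2 L307R over wild type) of every measured probe set of the 12 genes whose probe sets span over 0.5. Squares are probe sets with the suffix _x_at, dots all others, and rings mark the probe set that stands for the gene. Atp5o spans from -1.37 to 0.29, and Sdhd and Sdhc reach -0.93 and 0.91 at _x_at probe sets.

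The promoters of these genes are known to share sites for NRF1, for the ETS factor GABPA and for YY1, which tie them to mitochondrial biogenesis. RefSeq windows of 300 bases (250 before and 50 after the start, assembly GRCm38.p6) were found for 74 of the 90 genes, 79 windows in all, and were searched on both strands for 7 letters of each: GCATGCG for NRF1, CCGGAAG for ETS factors and AAGATGG for YY1. The NRF1 letters were in 15.2% of member windows, 6.2% of the windows of all measured genes and 3.58% of all windows. The ETS letters were in 24.1%, 17.2% and 8.86%, and the YY1 letters in 13.9%, 6.82% and 6.34%. The search for NRF1 can match overlapping letters on both strands. Across members, the median log2 ratio was 0.17 for the 12 measured genes with the NRF1 letters (11 above 0) and 0.08 for the 58 without (42 above 0). For the ETS letters it was 0.08 with (19 genes) and 0.12 without (51 genes), and for the YY1 letters 0.05 with (11 genes) and 0.10 without (59 genes). With any of the 3 it was 0.09 (34 genes), and 0.11 without (36 genes). These differences were not tested.

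The upstream parts of 4 windows are shown, for both genes past 1.5-fold (Atp5md and Ndufb1) and for 2 that stayed within it and hold motifs (Atp5j, the only one of the 79 windows with all 3, and Cox6a1). Each is printed 5′ to 3′ on the strand of the gene and ends at the base before the start, and capitals mark the motif letters on either strand.
Atp5md, chr19:47090648-47090897, minus strand: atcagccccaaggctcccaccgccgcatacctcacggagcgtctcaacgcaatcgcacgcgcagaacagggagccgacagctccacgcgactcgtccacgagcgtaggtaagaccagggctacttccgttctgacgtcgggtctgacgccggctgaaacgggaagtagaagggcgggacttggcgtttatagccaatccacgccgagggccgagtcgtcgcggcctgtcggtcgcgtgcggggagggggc
Ndufb1, chr12:101975739-101975988, minus strand: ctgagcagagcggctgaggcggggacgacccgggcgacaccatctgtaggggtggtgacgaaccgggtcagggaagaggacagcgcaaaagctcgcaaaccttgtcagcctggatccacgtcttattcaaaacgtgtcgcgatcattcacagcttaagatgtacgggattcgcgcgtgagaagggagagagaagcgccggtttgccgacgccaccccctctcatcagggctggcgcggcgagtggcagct
Atp5j, chr16:84834977-84835226, minus strand: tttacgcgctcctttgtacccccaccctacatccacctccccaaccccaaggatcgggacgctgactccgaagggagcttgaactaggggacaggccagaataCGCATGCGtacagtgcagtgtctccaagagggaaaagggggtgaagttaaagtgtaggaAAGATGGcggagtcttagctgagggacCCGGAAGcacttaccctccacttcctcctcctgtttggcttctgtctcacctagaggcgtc
Cox6a1, chr5:115348959-115349208, minus strand: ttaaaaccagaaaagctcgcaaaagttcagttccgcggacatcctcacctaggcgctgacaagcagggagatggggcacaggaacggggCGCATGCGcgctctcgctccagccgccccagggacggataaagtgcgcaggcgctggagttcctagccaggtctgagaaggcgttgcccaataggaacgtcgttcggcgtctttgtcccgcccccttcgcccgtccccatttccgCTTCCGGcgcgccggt
The 50 bases after the start are not shown, and they hold many of the matches: 34 of the 79 windows have any motif over all 300 bases and 20 in the 250 upstream bases, and for the YY1 letters 11 and 1. No capitals stand in the upstream bases of Atp5md and Ndufb1. The window of Atp5md holds the ETS letters after the start, and that of Ndufb1 holds none of the 3 motifs. In the upstream bases of Atp5j, 3 separate runs are capital. Atp5j had 8434 in Phc2 L307R and 7813 in wild type, a log2 ratio of 0.11, and both probe sets of Cox6a1 lay above 0, at 0.35 and 0.10.

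The list of regulators of mitochondrial biogenesis was lower on balance, with a median log2 ratio of -0.10 over 17 measured of 18 genes, 5 of them above 0 and none past 1.5-fold. Tfam, which packages and transcribes mitochondrial DNA, had 1025 in Phc2 L307R and 1198 in wild type, a ratio of -0.22, and its second probe set gave 0.22. Gabpa, the DNA-binding part of GABP, had 1354 in Phc2 L307R and 1623 in wild type, a ratio of -0.26. The coactivator Ppargc1b was at -0.28, Gabpb1 at -0.25 (0.16 at its second probe set) and Polrmt, the mitochondrial RNA polymerase, at 0.27 (-0.34 at its second). The coactivator Ppargc1a lay below the floor on both arrays. These genes therefore had mostly small negative ratios where the subunits had mostly small positive ones.

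The further assembly factors, 37 measured of 41 in the list, had a median of 0.04, with 20 above 0 and none past 1.5-fold. The lowest were Atpaf2, a chaperone of the F1 head (-0.57), Cox17, a copper chaperone of complex IV (-0.51), Sco1, also of copper delivery (-0.48), and Cox16 (-0.40). Cytochrome c and coenzyme Q genes had a median of 0.13 over 14 measured of 17. Cycs, cytochrome c itself, had 10373 in Phc2 L307R and 16090 in wild type, a ratio of -0.63, while a second bright probe set had 10556 in Phc2 L307R and 9931 in wild type, a ratio of 0.09. The third measured one had 2706 in Phc2 L307R and 3633 in wild type, a ratio of -0.43. Coq8b, a kinase-like factor of coenzyme Q synthesis, had 544.3 in Phc2 L307R and 332.6 in wild type, 1.64-fold higher. Cyc1, the cytochrome subunit of complex III that the name rule does not take, was at 0.24.

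Enzymes of the tricarboxylic acid cycle had a median of 0.00 over 16 measured of 17 genes, from -0.30 (Dld) to 0.18 (Pdha1). Membrane carriers and channels had a median of 0.13 over 15 of 17. Of these, the phosphate carrier Slc25a3, which supplies the ATP synthase, had 19644 in Phc2 L307R and 15338 in wild type, a ratio of 0.36, with Slc25a10 at 0.49, Slc25a20 at -0.45 and the channel Vdac1 at 0.32. Other probe sets reached 0.37 for Slc25a20 and -0.31 for Vdac1. Import and cristae genes had a median of -0.10 over 24 of 26, with Timm9 and Tomm70a past 1.5-fold. Timm9, a small import chaperone, had 299.0 in Phc2 L307R and 529.3 in wild type, a ratio of -0.82, and its second probe set gave -0.90. Tomm70a, an import receptor, had 2387 in Phc2 L307R and 4399 in wild type, and all 4 measured probe sets lay below 0, between -0.88 and -0.17. The mitochondrial lists did not all run the same way.

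**Figure D4:**
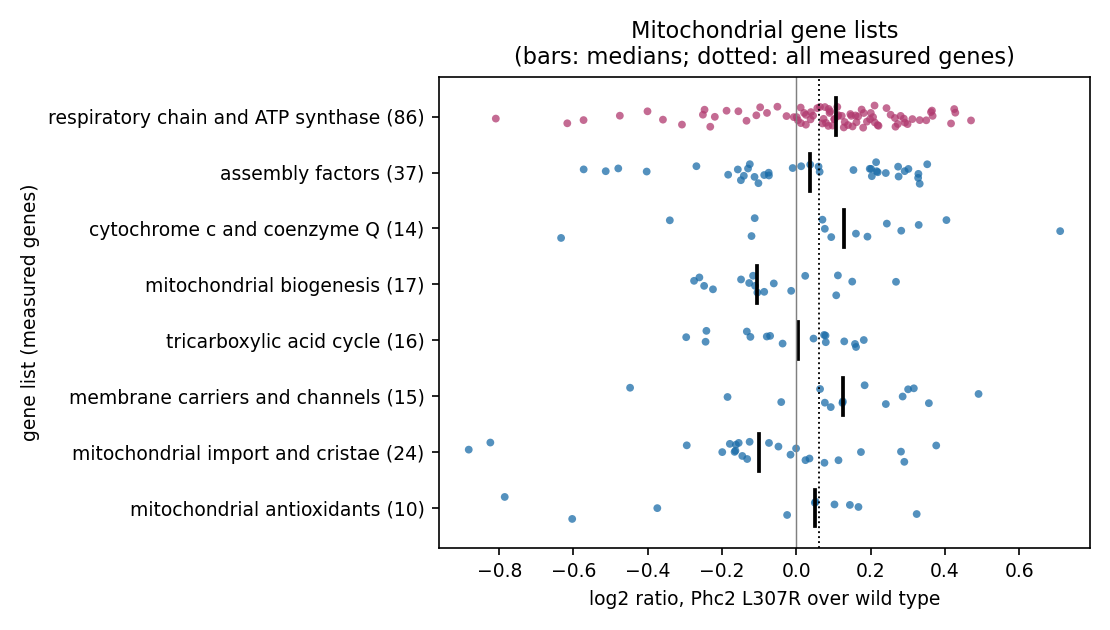
Log2 ratio of every measured gene of the family (top row) and of 7 related lists, with the number of genes in brackets, medians as bars and the median of all measured genes, 0.06, as a dotted line. The list medians run from -0.10 for biogenesis and for import and cristae to 0.13 for membrane carriers and for cytochrome c and coenzyme Q.

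Fibroblast markers were bright on both arrays, and 7 of 8 were higher in Phc2 L307R, with Pdgfra at -0.12 (another of its probe sets gave 0.77). Vim was at 0.42, and another of its probe sets gave -0.22. The 8 fibroblast markers summed to 127000 signal units in Phc2 L307R and 92954 in wild type. Their part in the ratios above was not tested. Of markers of mitochondria-rich tissues, the 8 of skeletal and heart muscle summed to 18052 signal units in Phc2 L307R and 17108 in wild type. Of these, Ckm and Myh6 lay below the floor. The 6 measured ones had a median log2 ratio of -0.06, with 3 above 0 and 3 below. Actc1, the brightest, had 11525 in Phc2 L307R and 10151 in wild type. Myog had 1828 in Phc2 L307R and 1809 in wild type, and Myod1 was at 0.29. Below 0 were Myh3 (-0.22), Tnnt2 (-0.13) and Mb (-0.47). The 4 brown fat markers with a probe set summed to 214.4 in Phc2 L307R and 271.0 in wild type, with Ucp1, Cidea and Adipoq below the floor on both arrays. Cartilage markers were higher, at 8484 signal units in Phc2 L307R and 5522 in wild type over 6 of 6 genes, and their part was not tested. Summed signals of 5 macrophage markers were 574.2 in Phc2 L307R and 418.6 in wild type. Of these, Ptprc and C1qa lay below the floor on both arrays, Cd68 was at -0.11, and Csf1r and Lyz2 were at 0.57. The sums of 4 endothelial markers were 492.3 in Phc2 L307R and 432.1 in wild type, with Pecam1 and Cdh5 below the floor on both. Those of 2 erythroid ones with a probe set were 26.5 in Phc2 L307R and 13.6 in wild type. Both erythroid markers lay below the floor on both arrays. For 4 epithelial markers the sums were 793.6 in Phc2 L307R and 1009 in wild type, with Epcam and Cdh1 below the floor on both. Of 3 neuronal markers, summed at 771.6 in Phc2 L307R and 1200 in wild type, Map2 had 359.4 in Phc2 L307R and 891.1 in wild type, Tubb3 had 396.1 in Phc2 L307R and 294.3 in wild type, and Snap25 lay below the floor on both arrays. Phc2 itself had 4079 in Phc2 L307R and 3184 in wild type at 1 probe set and 3103 in Phc2 L307R and 3145 in wild type at the other.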

How the data were processed

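Biotin-labelled cRNA of 1 culture per genotype was hybridised to Affymetrix arrays, per the labels' protocols. The authors deposited linear intensity values of 45101 probe sets per array. They were made with Affymetrix Expression Console and MAS5 (versions not stated), per the submitters' processing notes. No scaling step is named in the sources used here. The values show a mean of 500.0 on both arrays after 2% of probe sets were trimmed at each end. Medians were 94.3 for Phc2 L307R and 94.8 for wild type, and the arrays had a Spearman correlation of 0.955. The number of arrays limits the precision.

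The 64 control probe sets were left out. Of the rest, 34945 had 1 gene symbol, and 34741 of these matched a RefSeq gene table (GRCm38.p6), used for names and gene order. Signals below the floor, the higher array median, were raised to it before log2 ratios were taken. Where a gene had several probe sets, the one with the highest mean log2 signal stood for it. With 1 array per genotype there is no p-value. Sizes were counted at 1.5-fold and 2-fold. Python 3.11.15, numpy 2.4.6 and pandas 2.3.3 were used, and the calculation was tested on simulated arrays. The changes planted there were increases past 2-fold, so that test is no check of the small ratios given here.

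The members, gene lists and tests were chosen with earlier results of these data known. By the naming rule any member could be named. Those given in full were each complex's highest and lowest gene, those past 1.5-fold and a list of nuclear subunits taken as core. Also given were isoform pairs, members on the chromosome of Phc2 and up to 4 genes of largest ratio per further list. Tfam, Cyc1 and single markers given beyond these were chosen after their values were seen. Alternatives were quantile normalization, loess (span 0.4, 3 iterations), centring, floors at percentiles 40 and 60, no floor, a pseudocount, the mean over probe sets, no _x_at or _s_at probe sets, other member sets, probe sets as units and a 3-fold threshold. Protein identities of isoforms were planned and not computed here.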

Additional observations from a re-analysis of the deposited data

How the results depend on the processing

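No paired analysis was possible because each genotype has 1 array, and for the same reason no array could be left out. No result has a test, so values under the alternatives are compared with a fixed scale. For a single gene it is the SD between probe sets of 1 gene over all measured genes (0.32). For a median this SD is divided by the root of the number of genes. Genes on the same 2 arrays are not independent, so that scale is no error of a median. The median log2 ratio of all members was 0.0603 with loess and 0.0443 when centred, that of complex I 0.0165 with loess and 0.0274 when centred, and that of the genes that are not subunits -0.0124 with loess and -0.0456 when centred. Complex II turned to -0.0038 when centred and to -0.0233 over probe sets. The medians of complexes III, IV and V stayed above 0 under every alternative run on them. They ran at 0.03 to 0.15, 0.12 to 0.20 and 0.09 to 0.15, in that order. The 0.03 of complex III came with the mean over probe sets, where the median of all measured genes was 0.04. In that setting complex III thus did not lie above all genes. The count past 1.5-fold was 6 without a floor (which keeps genes dim on both arrays), 1 with the pseudocount (Atp5md, with Ndufb1 at -0.49) and 7 over probe sets, and that past 2-fold was 3 without a floor and 1 over probe sets. Over probe sets, 112 had a ratio above 0. Of 766 values of single genes under the alternatives, 755 moved by less than the SD between probe sets and 11 by more. Centring shifts every gene by only 0.06, and the floor settings hardly touch bright genes. The mean over probe sets cannot change the 38 genes with 1 measured probe set. The 755 small moves are therefore no check of the ratios. Among the 11, the mean over probe sets gave -0.54 for Atp5o, -0.15 for Cox6c, -0.15 for Uqcrc2 and 0.11 for Ndufs8, each on the other side of 0 from the value reported, and leaving out _x_at and _s_at probe sets did the same for Cox7c (-0.24) and Ndufc2 (0.38). The cause was not tested. Settings with Ndufa4 in complex I, without tissue isoforms, or with bright background genes were chosen after seeing the data. Signal near the floor limits what can be said of Cox4i2, Cox6a2, Cox7c and Ndufa4l2.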

Other observations

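Nnt, the nicotinamide nucleotide transhydrogenase of the inner mitochondrial membrane, had 2189 in Phc2 L307R and 3773 in wild type at its brightest probe set, a log2 ratio of -0.79, and 2327 in Phc2 L307R and 2849 in wild type at the next, a ratio of -0.29. Catalase (Cat), which breaks down hydrogen peroxide, had 1270 in Phc2 L307R and 1929 in wild type at 1 probe set, a ratio of -0.60, and 1228 in Phc2 L307R and 1308 in wild type at the other. Over the 10 measured mitochondrial antioxidant genes of 11, the median was 0.05, with Sod1 at -0.37 (0.16 at another of its probe sets) and Gpx4 at 0.32.

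Probe sets that the platform assigns to several genes were not counted as members. That of Ndufs6 had 2959 in Phc2 L307R and 3534 in wild type, a ratio of -0.26, the brighter one of Ndufa11 had 4420 in Phc2 L307R and 3846 in wild type, a ratio of 0.20, and both that include Ndufb4 lay at 0.07 and 0.00. Over the 86 member genes, the log2 ratio and the mean log2 signal had a Pearson correlation of 0.15 and a Spearman correlation of 0.22, given as a description of genes on the same 2 arrays, which are not independent replicates. Over all 11408 measured genes both were -0.01. The 6 members on the chromosome of Phc2 had ratios from -0.57 (Ndufb6, 359 measured genes away) to 0.43 (Ndufs5), with Sdhb at 0.13 and Uqcrh at 0.09.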
